A study of Arabidopsis thaliana with 6 samples.

Results

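The genes described here had means at least 8-fold lower in *agl62* than in WT seeds of *Arabidopsis thaliana*. They were selected on the measured values themselves: a mean of no less than 50 normalized counts in WT seeds, and an *agl62* mean of at most an eighth (0.125) of the WT mean after 1 was added to both. Of 32678 listed genes, 17625 reached the WT level and 204 of these passed the ratio, which is 1.16% of the 17625. *AGL62* itself, *PGP10* and *XTH1* were left out, and the other 201 genes are called the lost genes below, although up to 12.3% of the WT level remained. Since the genotype difference chose them, their values are a description and carry no test.

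RNA was sequenced from whole seeds taken 30 h after hand-pollination of emasculated flowers, with 3 libraries labelled wildtype (WT) and 3 labelled *agl62*/-. The mutant seeds came from homozygous *agl62* plants, which arise at low frequency, whereas a legend to the study's own data table gives the genotype as *agl62*/+; the allele named by the study is *agl62-2*. The strain of the WT plants is not given in the sources used here. The table analysed here holds the authors' mean normalized count for each genotype and no value of a single library, so that neither an SD nor the overlap of replicates can be given; the replicates exist but their spread cannot be seen. *AGL62* (AT5G60440) had an authors' mean of 410 in WT and 1.81 in *agl62*.

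AGL62 is a type I MADS-box transcription factor of the endosperm, the fertilized tissue that nourishes the embryo. In young *Arabidopsis* seeds the endosperm is a syncytium whose nuclei divide without walls between them, and without AGL62 it forms walls too early. Plant reproductive tissues produce many small secreted peptides with several cysteines, which pair into disulphide bridges. Well-known members of this broad group guide pollen tubes, activate sperm, pattern the early embryo or act as antimicrobial defensins.

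By product name, the largest class of the lost genes was that of small cysteine-rich peptides, with 64 of the 201. These were followed by 41 proteins of the cell wall, 19 proteases and their inhibitors, and 16 proteins grouped by name as other secreted proteins. The last group includes AT2G03290 and AT2G03040 of the emp24/GOLD family, whose name does not itself mean that they are secreted. Where the proteins go in the seed was not examined. Transcription regulators came to 11 genes and transporters to 6. The coding sequences of 4 peptide genes are printed because they belong to the largest class, with every cysteine codon in capitals (RefSeq, TAIR10.1, exons joined). They encode a low-molecular-weight cysteine-rich (LCR) peptide, a defensin-like peptide, a thionin-like peptide and a gibberellin-regulated (GASA) peptide, at chr4:14431613-14432173, plus strand for *LCR24*, chr1:21488741-21489064, plus strand for AT1G58055, chr1:11044671-11044910, plus strand for AT1G30972 and chr2:16500866-16501241, plus strand for AT2G39540.
LCR24: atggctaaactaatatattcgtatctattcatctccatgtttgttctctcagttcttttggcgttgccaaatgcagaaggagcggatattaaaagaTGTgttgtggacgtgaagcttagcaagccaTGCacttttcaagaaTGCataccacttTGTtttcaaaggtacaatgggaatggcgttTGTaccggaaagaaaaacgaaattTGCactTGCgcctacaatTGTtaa
AT1G58055: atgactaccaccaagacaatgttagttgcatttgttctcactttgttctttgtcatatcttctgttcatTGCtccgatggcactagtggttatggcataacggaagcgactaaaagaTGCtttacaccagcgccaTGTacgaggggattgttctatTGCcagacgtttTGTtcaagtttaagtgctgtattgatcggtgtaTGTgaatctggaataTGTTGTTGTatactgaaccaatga
AT1G30972: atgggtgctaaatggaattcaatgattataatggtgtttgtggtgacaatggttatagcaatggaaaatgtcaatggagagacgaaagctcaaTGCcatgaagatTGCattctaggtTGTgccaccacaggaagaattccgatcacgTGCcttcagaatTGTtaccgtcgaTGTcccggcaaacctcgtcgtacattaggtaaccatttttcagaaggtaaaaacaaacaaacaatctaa
AT2G39540: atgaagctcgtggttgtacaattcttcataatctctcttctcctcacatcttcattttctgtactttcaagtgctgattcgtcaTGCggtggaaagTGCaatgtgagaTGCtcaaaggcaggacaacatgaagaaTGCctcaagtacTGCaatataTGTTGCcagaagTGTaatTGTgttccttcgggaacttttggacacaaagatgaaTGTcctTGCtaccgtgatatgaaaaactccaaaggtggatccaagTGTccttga

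The 4 sequences are short, with 231 to 264 coding bases, and hold 6 to 12 cysteine codons. In *LCR24* the authors' mean was 1030 in WT and 89 in *agl62*. For the defensin-like gene AT1G58055 it was 1260 and 9.81, and for the thionin-like AT1G30972 it was 624 and 13.5. The GASA gene AT2G39540 was near the lower limit of level with 72.5 and 5.43. What was left in *agl62* thus ran from 0.779% to 8.64% of WT among genes of similar length.

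In level the lost genes lay below most genes of the seed. Their median WT mean was 204, with quartiles of 92.9 and 536, against 1380 for all 17625 genes. Per kilobase of transcript, which removes the effect of their short transcripts, the median was 249 against 762. The share of genes lost fell from 5.15% of those with a WT mean between 50 and 100, through 2.14% between 200 and 500, to 0.121% between 2000 and 5000, and was 0.181% at 5000 or more. A few genes nonetheless carried most of the signal. AT3G01345 alone gave 21.5% of the summed WT means of the lost genes, and the 10 highest gave 51.4%. Together the lost genes made up 0.227% of the summed means in WT and 0.00924% in *agl62*.

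**Figure D1:**
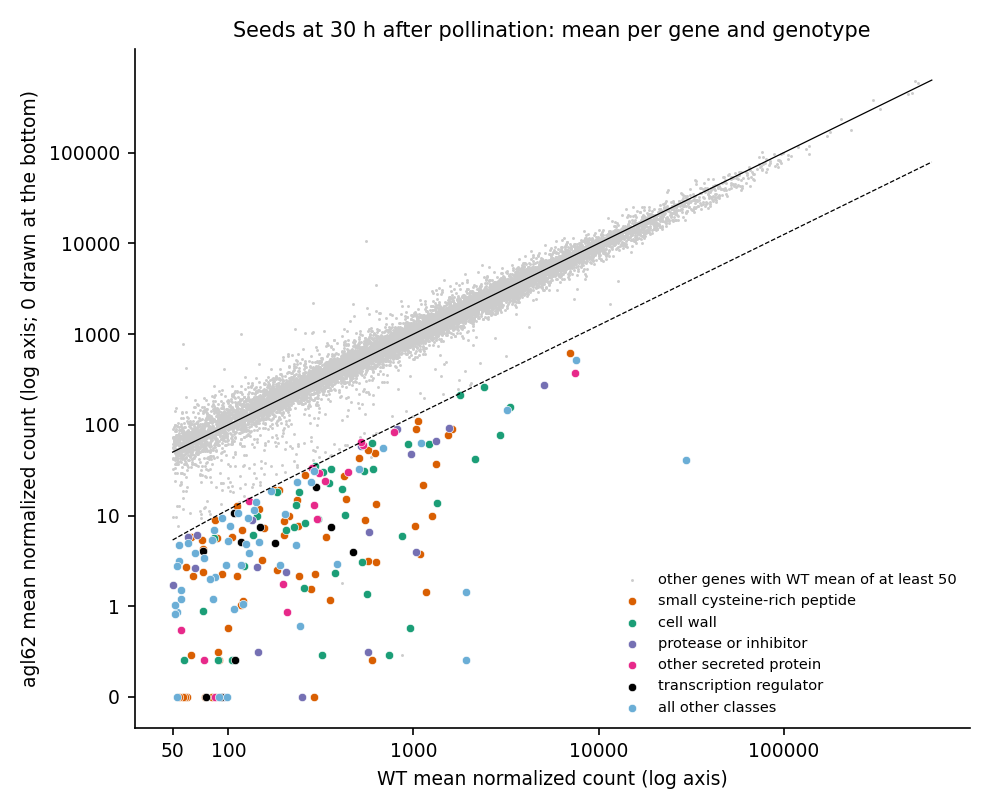
Authors' mean normalized count per gene in *agl62* seeds (vertical, log axis, 0 drawn at the bottom) against WT seeds (horizontal, log axis), with the lost genes coloured by class, the other genes at or above the WT limit of 50 in grey, equality as a solid line and an eighth of the WT level as a dashed line. Most grey points lie close to equality (median log2 ratio 0), the lost genes span WT means of 50.5 to 29500, and AT3G01345 stands alone at the right; the 3 genes that were left out are grey points under the dashed line.

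The median *agl62* mean of the lost genes was 5.79, or 3.39% of WT, and the median log2 ratio was -4.59 on the scale of the mean plus 1. Less than 1% of the WT level remained for 60 genes and less than 5% for 119. The library depths could be read from the lowest means, in which 1 count adds 0.242, 0.326 or 0.731 in WT and 0.256, 0.291 or 0.315 in *agl62*. By this measure 15 of the lost genes had no count at all in the *agl62* libraries, 15 had 1 count, 9 had 2 or 3, and 128 had over 10. The genes without a count had WT means of 52.5 to 291, and against 3 counts over the *agl62* libraries they were 61.4- to 340-fold lower. For these genes "at least" below refers to that limit of 3 counts. The lower ends of their 95% counting intervals were smaller, at 49.3- to 276-fold. The 95% counting interval of the ratio lay wholly below 12.5% for 176 genes and reached above it for 25; it covers counting error only, not the spread between seeds or plants. In whole seeds, fewer cells of a type and less RNA per cell cannot be told apart.

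Among the 17625 genes, 1.59% were lower in *agl62* past 4-fold and 2.30% past 2-fold, while 0.715% were higher past 2-fold. The limit on the WT mean leaves out genes that were low in WT and higher in *agl62*, here and in the counts of higher genes given below. With the limit of 50 set on the *agl62* mean instead, 264 of 17548 genes (1.5%) were higher past 2-fold and 43 (0.245%) past 8-fold. Just inside the ratio limit lay the expansin gene *EXPA21* (295 in WT, 35.5 in *agl62*), AT5G37474 (111 and 12.9) and AT2G19970 (519 and 64). Just outside it lay AT3G01323 (1000 and 125), *CYP89A6* (605 and 76.5) and AT5G63087 (356 and 45.7). At the WT limit, *SRP3* (50.5 and 1.72), AT2G20465 (51.2 and 1.02) and AT1G19160 (51.7 and 0.826) were the last ones in, and AT4G29033 (48.5 and 0), AT1G56400 (48.6 and 1.92) and *CAD2* (49.3 and 0.256) the first ones out. These neighbours include a further ECA1-like, thionin-like and defensin-like gene, so the limits cut through the peptide families rather than around them.

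**Figure D2:**
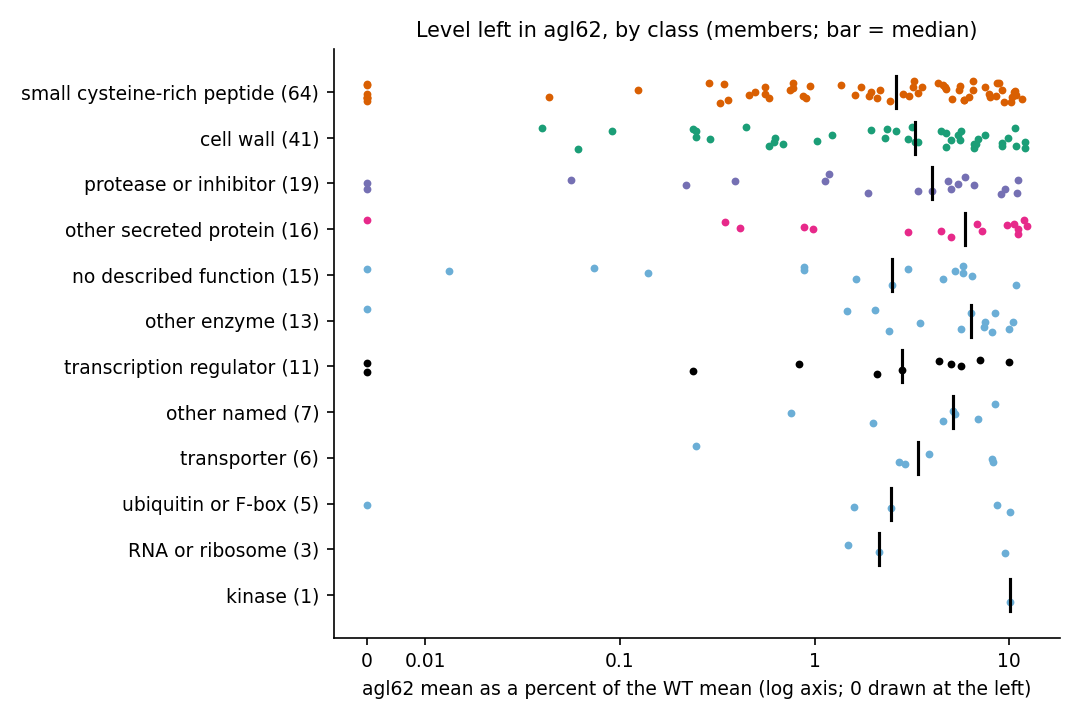
Authors' mean in *agl62* as a percent of the WT mean (log axis, 0 drawn at the left) for each of the 201 lost genes, by class with the number of genes in brackets and the class median as a black bar. Class medians run from 2.15% to 10.1%, and within the larger classes single genes spread from 0 or below 0.1% up to the limit of the set.

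The small cysteine-rich peptides were the largest class. Of 144 such genes at or above the WT limit of 50, 64 (44.4%) were lost, 105 were lower past 2-fold and 1 was higher past 2-fold, beside the 1.16%, 2.30% and 0.715% over all genes. The 64 were spread over 9 families, and the 64 peptides were 71 to 129 residues long (median 87) with 4 to 18 cysteines (median 8).

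The LCR family, relatives of plant defensins and of the pollen coat protein PCP-A1, lost 17 of its 28 genes, and 24 of the 28 were lower past 2-fold. *LCR19* (AT4G30074) had an authors' mean of 1620 in WT and 90.3 in *agl62*, and its 3074 per kilobase in WT was the highest value of the 17. *LCR60* (AT2G20208) stood at 1020 and 7.65, *LCR12* (AT5G48905) at 549 and 8.84, and *LCR61* (AT4G30064) at 423 and 27.6. *LCR76* (AT2G31953) had 594 in WT and 0.256, a single count, in *agl62*; the ratio of 2320-fold has a counting interval of 373 to 82280. *LCR73* (AT2G02147) had 335 and 5.84. At the low end, *LCR53* (AT3G61177) had 59.8 in WT and no count in *agl62*, at least 69.9-fold lower. The LCR genes therefore ranged from 0 to 10.3% of WT.

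Defensin-like genes, whose products share the fold of antimicrobial defensins, lost 14 of 35 genes, and 28 of the 35 were lower past 2-fold. AT1G58055, printed above, was the highest of the 14 per kilobase (3784 in WT), and AT1G13605 had 1320 in WT and 37.4 in *agl62*. AT1G61688 had 1170 and 1.44, made of 5 counts, a ratio of 812-fold with a counting interval of 351 to 2528. AT1G63522 had 356 and 1.16, made of 4 counts, a ratio of 307-fold (122 to 1148). AT1G69818 (618 and 48.8), AT1G68905 (569 and 53.3) and AT5G46877 (510 and 43.6) kept 7.90% to 9.37% of WT. The 14 genes thus ranged from 0.123% to 9.37% of WT.

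ECA1-like genes belong to the family of the egg cell peptides EC1, which are known to activate sperm. All 11 that reached a WT mean of 50 were lower past 2-fold and 7 of them were lost. AT5G51105 was the highest peptide gene of the set both as a mean (7000 in WT, 621 in *agl62*) and per kilobase (12844 in WT). AT3G27425 stood at 625 and 3.09. AT2G22155 (291 in WT), AT2G22145 (81.6) and AT3G45275 (74.4) had no count in *agl62* and were at least 340-, 95.4- and 86.9-fold lower. The EC1 genes proper did not follow this: 1 of the 5 (*EC1.4*) reached a WT mean of 50, with 169 in WT and 175 in *agl62*. The annotated span of AT5G51105 overlaps AT5G51110 on the other strand (366 and 534), and since the strand setting of the counting is not given, reads of the pair may not be separable.

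The remaining peptide families were smaller. SCR-like genes, named after the pollen determinant of self-incompatibility in *Brassica*, lost 3 of 5, with *SCRL10* (AT4G15735) at 1530 in WT and 77.9 in *agl62*. Thionin-like genes lost 6 of 15, among them AT1G12665 with 566 and 3.16. The proteins annotated as membrane lipoproteins lost 7 of 18; they too are short and hold 9 to 12 cysteines, and AT2G04925 among them had 1120 and 21.9. Of 7 GASA genes 2 were lost, and AT2G30810 had 1090 in WT and 3.75 in *agl62*, a ratio of 291-fold (172 to 553). RALF-like genes lost 2 of 15, *RALFL2* (87.6 and 0.315) and *RALFL3* (54.2 and 0). They belong to a family of peptide ligands that act on receptor kinases and change the pH outside the cell. AT2G24693, of a further cysteine-rich family, had 1060 in WT and 110 in *agl62*, whereas its family member AT1G54445 had 279 and 1.55. The SCR-like, thionin-like and ECA1-like families were lower past 2-fold in 5 of 5, 12 of 15 and 11 of 11 genes. In the further cysteine-rich family 8 of 10 were lower past 2-fold. The other families fell less widely, with 9 of 18 genes annotated as membrane lipoproteins, 5 of 15 RALF-like and 3 of 7 GASA genes. Of the 18, 1 was higher past 2-fold.

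**Figure D3:**
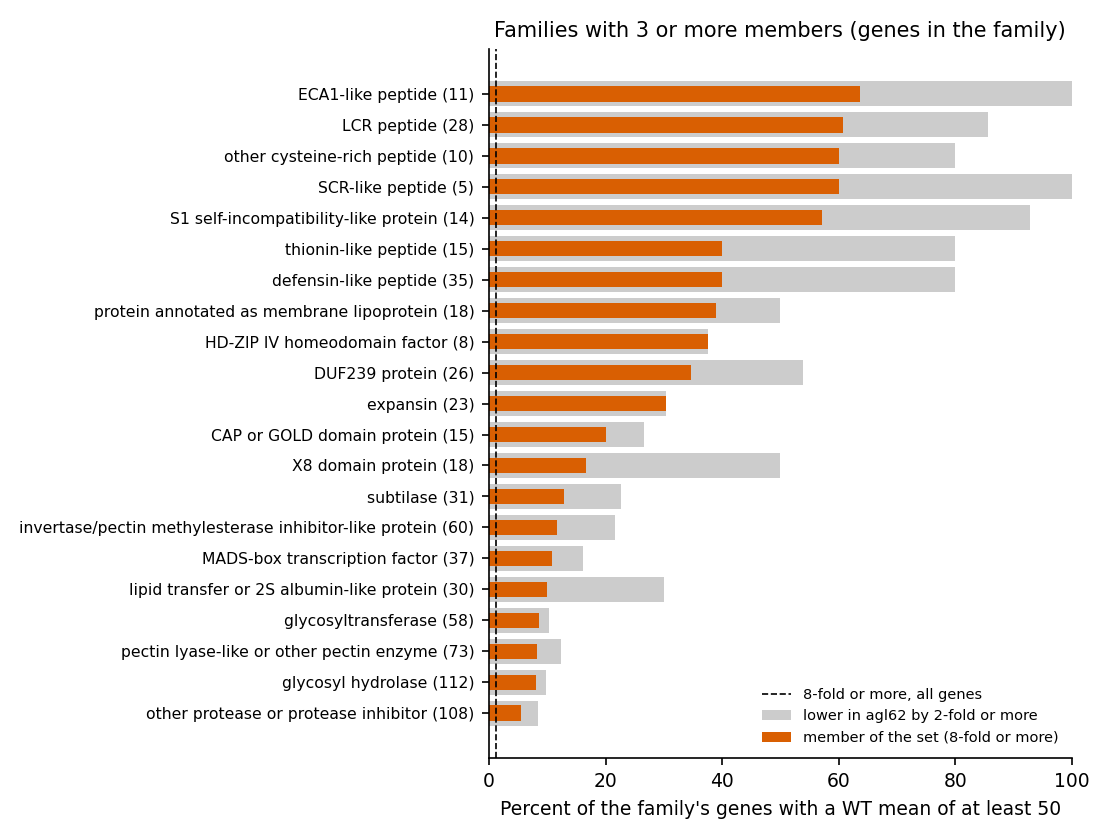
Percent of each family's genes at or above the WT limit of 50 that are in the set (orange, lower by 8-fold or more) and that are lower in *agl62* by 2-fold or more (grey), for named families with 3 or more lost genes; broad groups such as other enzymes, transporters, F-box or RNA-binding proteins and genes without a described function are not drawn, the number of genes in the family is in brackets and the dashed line is the 1.16% over all genes. ECA1-like, LCR, other cysteine-rich, SCR-like and S1 families stand highest, with 57.1% to 63.6% of their genes lost, and other proteases or protease inhibitors stand lowest of those drawn, with 5.56%.

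The class was named from annotation, and cysteines were also counted in the proteins themselves. Proteins of at most 150 residues with at least 6 cysteines made up 80 of the 199 lost genes with a coding sequence (40.2%), beside 294 of 17327 (1.70%) over all genes at or above the WT limit of 50. Of those 294 genes, 133 (45.2%) were lower past 2-fold and 3 were higher. The 80 comprised 62 of the named peptides, 6 cell wall proteins, 6 proteins without a described function, 5 other secreted proteins and 1 with another name. The median length was 179 residues in the lost genes and 398 over all, and the median number of coding exons was 2 and 5. A pair of cysteines separated by 3 residues, followed by a pair separated by 1, is a spacing of the defensin fold. It occurred in 42 of the 64 peptides (65.6%) and in 37 of the 80 other genes of the class at or above the WT limit. Since families are named partly from such spacing, these counts describe the class and set it apart from nothing. All 17 LCR and 12 of 14 defensin-like peptides had it, whereas no ECA1-like, thionin-like, SCR-like or RALF-like peptide did.

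**Figure D4:**
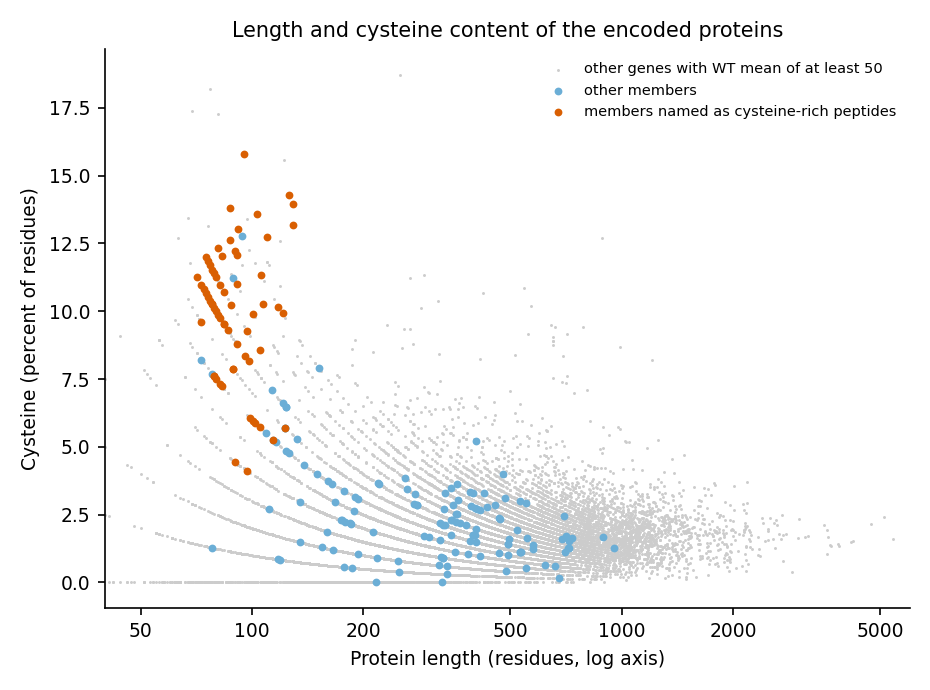
Cysteine content (percent of residues) against protein length (residues, log axis) for the lost genes named as cysteine-rich peptides (orange), the other lost genes (blue) and the other genes at or above the WT limit of 50 (grey). The peptides gather at 71 to 129 residues, where few grey points reach the same cysteine content, and the other lost genes spread over the range of ordinary proteins.

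Genes with a role in the cell wall formed the second largest class: 41 of 389 (10.5%) were lost, 62 were lower past 2-fold and none was higher past 2-fold. Genes grouped as expansins, which loosen walls during growth, lost 7 of 23, and these 7 were also the only ones of the 23 lower past 2-fold. Among the 7 is AT4G30380 (136 in WT, 6.11 in *agl62*), which is annotated as a Barwin-related endoglucanase and encodes 126 residues. *EXPA25* (AT5G39300) had an authors' mean of 3320 in WT and 158 in *agl62*, *EXPA23* (AT5G39280) 2140 and 41.8, and the beta-expansin *EXPB4* (AT2G45110) 867 and 5.95. In the last, 0.686% of the WT level remained.

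Pectin, the gel of the wall, was represented by enzymes and by a superfamily named after their inhibitors. Of 60 genes annotated to the invertase/pectin methylesterase inhibitor superfamily 7 were lost. They were led per kilobase by AT3G17150 (3760 in WT), which had 2410 in WT and 261 in *agl62*. The name does not show that each is an inhibitor: AT4G02300 among the 7 encodes 532 residues, and AT3G17150 encodes 184. AT3G05741 of the same family had 736 and 0.291, a single count, a ratio of 2529-fold with a counting interval of 463 to 101965. Its annotated span overlaps that of AT3G05740 on the other strand (964 and 814), a gene that was not lowered to this degree. Pectin lyase-like and other pectin enzymes lost 6 of 73 genes. Among them AT5G44840 had 952 and 0.581, made of 2 counts, a ratio of 1639-fold (462 to 13787). Its close copy AT5G44830, with 96.2% identity over 261 coding bases, had 88.1 and 0.256, and uniquely mapping reads may divide unevenly between them. Of the others, AT3G48950 had 304 and 9.15 and the pectin acetylesterase gene AT1G09550 261 and 8.23.

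Other wall genes act on hemicelluloses and cellulose or on sugars of the wall; glycosyl hydrolases lost 9 of 112 genes, glycosyltransferases 5 of 58 and X8 domain proteins 3 of 18. *sks8* (AT1G21850), a relative of the multicopper oxidase-like SKU5, had 2950 in WT and 77.8 in *agl62*. *TBL41* (AT3G14850), of a family that adds acetyl groups to wall polymers, had 1780 and 215, close to the limit of the set. The family 10 glycosyl hydrolase AT4G33840 had 1220 and 61.6, the family 17 member AT2G39640 936 and 61.8, and the endoglucanase-like *GH9B9* (AT2G44540) 562 and 1.38. *XTH2* (AT4G13090), a xyloglucan-remodelling enzyme, had 122 and 2.81. *MUM2* (AT5G63800), a beta-galactosidase known for its part in the mucilage of the seed coat, had 357 and 32.7. AT4G32105, annotated as a glycosyltransferase but encoding only 124 residues with 8 cysteines, had 1340 and 13.8. The X8 domain protein AT2G04910, of a family that binds callose-like glucans, had 527 and 3.07.

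Proteases and their inhibitors contributed 19 of 165 genes (11.5%), and 30 of the 165 were lower past 2-fold. Subtilases, serine proteases secreted into the wall, lost 4 of 31: AT5G58840 (5060 in WT, 275 in *agl62*), AT5G58820 (1560 and 92.3), *SBT4.13* (971 and 47.3) and AT4G15040 (522 and 57.7). The carboxypeptidase gene *scpl21* (AT3G25420) had 1320 and 66.4, and the cysteine proteinase gene AT4G23520 had 1030 and 4. DUF239 proteins, annotated as carboxyl-terminal peptidases or NEP-interacting proteins, lost 9 of 26 genes. Among them AT4G23360 kept 11.0% of WT (811 and 89.6). By contrast AT2G44240 was at 565 and 0.315, a single count and a 1794-fold ratio (355 to 78304), and AT4G23080 was at 251 with no count in *agl62*, at least 293-fold lower.

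Of the 16 genes grouped as other secreted proteins, 8 were relatives of the S1 self-incompatibility protein of poppy. In this family 8 of 14 genes were lost and 13 were lower past 2-fold. AT3G55677 had 784 in WT and 83.6 in *agl62*, AT4G24974 445 and 30.4, AT3G24065 332 and 24.2, and AT5G12060 307 and 29.8. AT5G04347 was the deepest of them with 207 and 0.861. The glycine-rich protein gene AT3G02670, at 7500 and 377, was the third highest gene of the set by mean and the fourth per kilobase (8751 in WT). A second glycine-rich gene, AT2G15340, had 536 and 59.3, and AT2G19970 of the CAP family 519 and 64. Of 30 lipid transfer or 2S albumin-like genes 3 were lost, and AT1G43665 among them had 84.4 in WT and no count in *agl62*, at least 98.6-fold lower.

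The gene with the highest WT level, by mean and per kilobase, has no described function. AT3G01345 (TAIR10.1 chromosome 3, 129138 to 130749, plus strand) encodes 466 residues in a single coding exon. Its authors' mean was 29500 in WT and 41.2 in *agl62*, a ratio of 716-fold (counting interval 610 to 852), and it had 18300 per kilobase in WT. Second by mean stood AT3G05460, annotated as similar to a sporozoite surface protein, with 7560 and 524; it encodes 152 residues with 12 cysteines. AT1G56415, with 3210 and 147, is annotated as uncharacterized and encodes 94 residues with 12 cysteines. AT1G63055 and AT1G63057 had the same WT mean of 1930 and *agl62* means of 1.42 and 0.256. They share their start and strand and their annotated spans overlap, so how the reads were divided between them is uncertain; they count as 2 of the lost genes and as 1 of the pairs given below. AT1G24570 had 170 and 18.5, and AT2G26865 had 129 and 3.9. The 15 genes of this class were 1.36% of the 1104 genes without a described function, beside 1.16% over all genes.

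Transcription regulators lost 11 of 514 genes (2.14%), beside 1.16% over all genes. The 11 had 48.7 to 582 normalized counts per kilobase in WT. Of 37 MADS-box genes 4 were lost and 6 were lower past 2-fold. AT5G26630 (*AGL35*) had 471 in WT and 3.94 in *agl62*, AT5G46320 178 and 5, *AGL64* (AT1G29962) 117 and 5.09, and *AGL46* (AT2G28700) 91 and no count, at least 106-fold lower. Type I MADS-box proteins such as these are known partners of one another in the endosperm and female gametophyte.

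HD-ZIP IV homeodomain factors, a family otherwise known for the epidermis, lost 3 of 8 genes. *HDG9* (AT5G17320) stood at 360 and 7.57, *HDG8* (AT3G03260) at 296 and 20.9 and *HDG10* (AT1G34650) at 107 and 10.7. *FWA*, an HD-ZIP IV gene expressed in the endosperm, was not grouped with these 8 by its product name. It had 720 and 358 and was not lost, with a log2 ratio of -1.01. *WRKY10* (AT1G55600), also named *MINI3* and known to promote endosperm growth and seed size, had 149 and 7.46. *RR21* (AT5G07210), a response regulator of the cytokinin pathway, had 108 and 0.256, a single count, and the BAH domain gene AT3G43990 had 75.3 and no count. AT1G55650, which encodes an HMG box and an ARID domain, had 72.7 and 4.11.

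The 6 transporter genes (1.37% of 439) carried different substrates. *ZIP7* (AT2G04032), a zinc transporter, had 245 in WT and 0.605, made of 2 counts, in *agl62*, a 405-fold ratio (118 to 3555). *PMT6* (AT4G36670), of the polyol and monosaccharide transporters, had 125 and 4.84, the tonoplast aquaporin *TIP4;1* (AT2G25810) 96.9 and 2.83, and the phosphate transporter *PHT1;7* (AT3G54700) 84 and 6.91. The vacuolar iron transporter *VIT1* (AT2G01770) had 60.4 and 4.93, and AT3G25280 of the major facilitator superfamily 55.5 and 1.5. As a share of all transporters the number was close to the background. The transporter gene *PGP10* passed the same limits but was left out of the set, so it is not among the 6.

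Enzymes outside the wall were represented by 13 of 3376 genes (0.385%), below the 1.16% over all genes. The 3 with the largest WT means were AT1G74010 of the phosphotriesterase-like family (1100 and 62.5), the sugar kinase-like AT1G06020 (683 and 55.6) and the strictosidine synthase-like *SS3* (506 and 32.2). *GA3OX4* (AT1G80330), which makes active gibberellin, had 146 and 5.09; it overlaps AT1G80325 on the same strand (172 and 150). *CDEF1* (AT4G30140), a cutinase-like enzyme, had 231 and 4.7. Next to AT1G13680 (291 and 30.6) and AT3G03240 (235 and 23.6), the trehalose synthesis gene *TPS3* (AT1G17000) had 89 and no count. The genes with a name but no class included *MRD1* (AT1G53480) with 384 and 2.91, AT3G05975 with 279 and 23.6, AT2G15590 with 202 and 10.4, the phosphatidylinositol transfer gene *COW1* with 73.9 and 3.4, and *BFT*, a relative of the flowering gene *FT*, with 52.5 and 2.76.

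Genes for RNA, ribosomes, ubiquitin, F-box proteins and kinases were also among the lost genes. Of 306 genes for RNA binding or ribosomes 3 were lost: AT5G24510, a ribosomal protein relative (190 and 2.83), the poly(A)-binding protein gene *PAB3* (113 and 10.8) and the Pumilio gene *PUM15* (55.4 and 1.19). Of 500 genes for ubiquitin or F-box proteins 5 were lost, among them *APD3* (141 and 14.2), *UBP11* (85.2 and 2.1) and the F-box genes AT3G23970 (54.3 and 4.72) and AT5G56430 (52.5 and no count). Of 317 kinase genes 1 was lost, the leucine-rich repeat kinase gene AT1G53420 (92.9 and 9.37). The shares were 0.980%, 1% and 0.315%. Except for the kinases they were close to the 1.16% over all genes.

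The lost genes often stood next to one another. Another lost gene lay within 5 genes on either side for 66 of the 201 (32.8%), beside 925 of the 17424 other genes at or above the WT limit of 50 (5.31%). The 66 formed 30 runs, of which 26 were pairs and 19 held a single group by product name. Among the 19 are AT1G63055 with AT1G63057, both without a described function. AT1G74010 with *SS3* also counts there, although both are grouped only as other enzymes. The genes between and beside them were not lowered as a rule: 924 neighbours within 5 genes that were not lost showed a log2 ratio of -0.01 in the median, and 3.79% of them were lower past 2-fold, beside 1.01% of 16497 genes farther away.

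The longest run was a block of 5 expansin genes on chromosome 5 (15726243 to 15738479). From *EXPA21* through *EXPA22*, *EXPA23* and *EXP26* to *EXPA25* the WT means were 295, 605, 2140, 326 and 3320, and the *agl62* means 35.5, 32.9, 41.8, 30 and 158. Levels in WT thus ran from 276 to 3547 per kilobase along the block, and those in *agl62* from 31.9 to 169. Their proteins are 69.1% to 97.5% identical, with *EXPA22* and *EXP26* at 97.5% and *EXPA23* and *EXPA25* at 95.6%, and the division of uniquely mapping reads between such copies is uncertain.

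On chromosome 4 (14694239 to 14700599) stood *LCR61* (423 and 27.6), *LCR59* (236 and 14.7) and *LCR19* (1620 and 90.3), with *LCR63* between them at 59.5 and 20.4 and so not lost. At 8581373 to 8593834 on the same chromosome the subtilase gene AT4G15040 (522 and 57.7) was followed by the DUF239 genes AT4G15050 (66.4 and 2.66) and AT4G15053 (145 and 0.315). The run on chromosome 3 (119546 to 130749) joined the ECA1-like genes AT3G01331 (259 and 27.8) and AT3G01324 (201 and 8.63) with AT3G01345. Here *DEL3* (638 and 679) and AT3G01340 (3610 and 3960) lay between lost genes at a level that was not lower in *agl62*, so that the loss was not shared by every gene of the stretch.

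**Figure D5:**
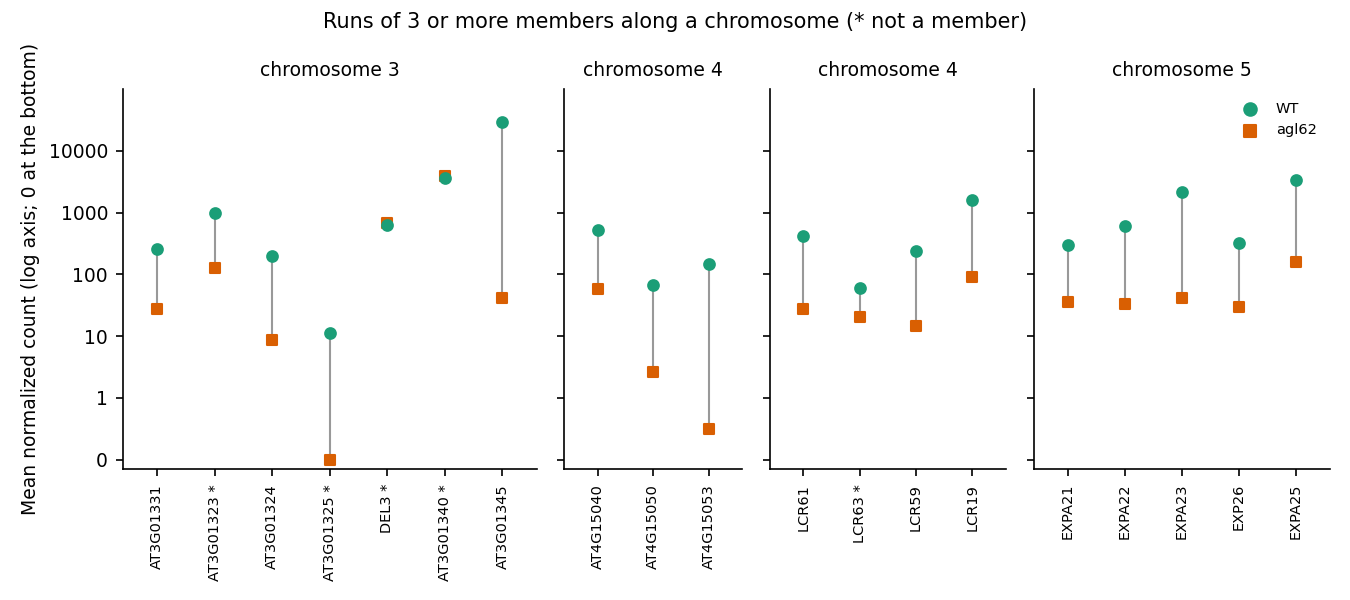
Authors' mean normalized count (log axis, 0 at the bottom) in WT (circles) and *agl62* (squares) for each gene, in chromosomal order, of the 4 runs with 3 or more lost genes; an asterisk marks genes that are not in the set. In the chromosome 3 run *DEL3* and AT3G01340 have overlapping symbols, while every lost gene shows a gap of 8-fold or more.

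The pairs were of the same kinds. They included the RALF-like *RALFL2* and *RALFL3*, the thionin-like AT1G12660 (120 and 1.14) with AT1G12665 and AT1G30972 with AT1G30974 (238 and 7.74), and *LCR21* (99.5 and 0.581) with *LCR24*. *LCR8* (147 and 11.8) stood with *LCR53*, and *LCR12* with *LCR46* (187 and 19.2). Wall and secreted proteins were paired in *GH9B9* with *GH9B11* (232 and 13), AT4G32105 with AT4G32110 (104 and 0.256), AT3G17150 with AT3G17152 (411 and 19.5), AT5G58820 with AT5G58840 and AT3G55665 (290 and 13) with AT3G55677. Between the 2 subtilases lay another, AT5G58830, at 352 and 183, which kept more of its level than either neighbour. Pairs of unlike genes included *ZIP7* with AT2G04034 (156 and 7.29), *XTH2* with *LCR37* (183 and 2.49) and AT3G03240 with *HDG8*, around *UGP1* at 18400 and 15100. AT5G54220 (88.8 and 0.256) lay beside *LCR83* (117 and 1.02), and AT5G59105 (63.2 and 0.291) beside *SBT4.13*. The other pairs were AT1G63055 with AT1G63057, AT1G74010 with *SS3*, AT2G04910 with AT2G04925, AT2G15325 (74 and 0.256) with AT2G15340, AT2G20463 (58.9 and 2.71) with AT2G20465, AT2G22145 with AT2G22155, AT3G25280 with *scpl21*, AT4G33830 (349 and 23) with AT4G33840, AT5G44830 with AT5G44840 and AT5G62623 (58 and no count) with AT5G62627 (84.6 and 8.92).

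Over the 5 chromosomes the share of genes lost ran from 0.966% on chromosome 5 to 1.66% on chromosome 2. Within 1 Mb of *AGL62*, 9 of 405 genes (2.22%) were lost, and within 2 Mb 11 of 804 (1.37%). The annotated span of 26 lost genes (12.9%) overlaps another gene, against 33.0% over all genes, and 12 had a copy with at least 95% identity over at least 100 coding bases.

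Promoters were searched because MADS-box proteins bind the CArG box, in the window from 250 bases before to 50 bases after the annotated start, on both strands. It was found in 9 of 200 lost genes (4.50%), beside 3.43% of genes at or above the WT limit of 50 and 2.69% of all promoters. The 4 sites printed are those of *AGL35*, of a neighbouring pair of glycosyl hydrolase genes and of the glycine-rich protein gene, with the CArG box in capitals (RefSeq, TAIR10.1). They lie at chr5:9350682-9350711, plus strand for *AGL35*, chr4:16226375-16226403, minus strand for AT4G33840, chr4:16222891-16222920, minus strand for AT4G33830 and chr3:574763-574792, minus strand for AT3G02670.
AGL35: ttttgatatcCCTAAAAAGGtatgatatat
AT4G33840: atttgctttCCATATTTGGcctccgtgca
AT4G33830: cattttctttCCATATTTGGcctccgcgca
AT3G02670: caacattaacCCAAAATTGGttgtcatgtc

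The sites lie 80 to 241 bases before the annotated start, and those of the glycosyl hydrolase pair have the same 10 bases in capitals. The E-box CANNTG was found in 63.5% of the lost genes, 61.7% of genes at or above the WT limit of 50 and 62.9% of all promoters. For CATGCA, the core of the RY element of seed genes, the shares were 11.0%, 7.74% and 10.4%, and for TGTAAAG, the box bound by Dof factors in endosperm genes of cereals, 6.50%, 5.43% and 5.16%. CATGCA and CANNTG can share bases. A match describes the letters of these windows and not a site in use.

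Genes known from particular seed tissues were compared to see what else differed between the seeds. The list of 24 genes of endosperm and central cell moved in both directions: 12 were lower in *agl62* past 2-fold and 4 were higher past 2-fold. These 2 counts have no limit on level, and the matching share of all listed genes is not given here. Of the 10 that reached a WT mean of 50, 6 were lower past 2-fold, beside 2.30% of all genes at that level. *WRKY10*, *AGL46* and *AGL35* among the 6 are lost genes. *PHE1* (302 and 98.6), *MEA* (333 and 49.8) and *FWA* were lower by less than 8-fold, and *FIS2* had 83.9 and 143. The 4 that were higher had low WT means, namely *ZOU* (0.326 and 68.3), *AGL28* (10.5 and 46), *AGL92* (0 and 21.2) and *AGL90* (0 and 9.4). All 12 seed coat genes lay between -0.31 and 0.07 on the log2 scale, with a median of -0.06. The 6 genes of green tissue were all higher in *agl62*, by 0.24 to 0.66 (median 0.49). Of 6 embryo genes 1 reached a WT mean of 50 (*ATML1*, 25200 in WT and 21900 in *agl62*, log2 ratio -0.20). The others had WT means of 3.4 to 38, and whether the level of *ATML1* came from the embryo was not tested. Among those others *LEC1*, a regulator of embryo development, had 38 in WT and 325 in *agl62* (log2 ratio 3.06). Of 5 egg cell genes 2 were higher past 2-fold from WT means below 10, among them *EC1.1* (6.99 and 26.8). Of 6 synergid genes none reached a WT mean of 50, and 2 of 3 pollen tube genes had a median of -0.03. How far the amount of endosperm, embryo or green tissue in the samples entered the losses was not tested.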

How the data were processed

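RNA-seq of 3 WT and 3 *agl62* seed libraries was used. Per the methods and the submitters' processing notes, paired-end reads of 100 bases were aligned by the authors with TopHat (genome TAIR10), only those mapping uniquely were kept, and DESeq was used; versions, counter and annotation are not given in the sources used here. The signal analysed here, as deposited, is the authors' mean normalized count of each genotype, that is, counts scaled by a size factor per library and then averaged. The table also holds the authors' ratio of those means (fold change), its log2 value, and a p-value with an adjusted p-value for each gene, all deposited by the authors and none used here. The design foresaw a count model if values of single libraries were present; the table used here has none, so no test was run and the replicate spread is unknown.

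Computed here were ratios of the 2 means, log2 ratios with 1 added, counts behind the *agl62* means and exact conditional binomial 95% intervals, for counting error only. Means under 1 (1522 in WT and 1737 in *agl62*) were all sums of the values of single counts, which gave relative depths of 1.377, 1.022 and 0.456 in WT and 1.302, 1.145 and 1.058 in *agl62*; which replicate is which is unknown. Genes were matched by locus identifier to RefSeq TAIR10.1 (31912 of 32678; AT5G63065 among the lost genes was unmatched), and grouped into 12 classes by product name. A further coding sequence is not reported here. Overlap of annotated spans and coding copies were also checked.

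Genes named were the 15 highest in WT, the 10 lowest ratios, the 6 highest of each class, those nearest each limit, those in runs and those in marker lists; further genes were named after their values were seen. The set, the classes and the lists were chosen with earlier results of these data known. Only the selection rule and the reading of library depths were tested on simulated data. There the chosen genes were lowered by a single fixed ratio and varied by counting error alone. The intervals, classes, runs and motif counts were not tested in this way. Python 3.11.15, numpy 2.4.6, pandas 2.3.3, scipy 1.17.1 and matplotlib 3.10.9 were used.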

Additional observations from a re-analysis of the deposited data

How the results depend on the processing

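The 201 lost genes became 104 when the WT mean had to reach 200, all of them among the 201. The genes that dropped out had WT means below 200, where the share of genes lost was highest. It was 5.15% between 50 and 100 and 3.20% between 100 and 200. The other limits gave 145 (WT mean of at least 100), 250 (at least 20), 203 (no pseudocount), 134 (pseudocount 10), 196 (columns scaled to equal totals), 201 (median log2 ratio set to 0) and 175 (without genes whose span overlaps another gene). The median log2 ratio, -4.59 as reported, lay between -4.88 and -3.33 over 4 alternatives. With a WT mean of at least 100 the peptides were 31.0% and the wall proteins 25.5% of the set, against 31.8% and 20.4%. With 10 genes on either side, 40.3% of the lost genes had another nearby, against 10.6% of other genes. No paired analysis was possible because each genotype has 1 mean and no replicate values here; for the same reason count models, filters on low counts and leaving out single replicates were not run. Depth limits the genes without a count in *agl62*, for which only a bound could be given, and those with few counts, whose intervals are wide.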
